A study of Homo sapiens with 6 samples.

Results

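The coagulation and complement genes examined here are 48 genes, chosen by symbol, that encode the fibrinogen chains, tissue factor, the clotting enzymes and cofactors, their inhibitors, the fibrinolytic system, and the complement components with their fluid-phase and membrane regulators. Of these, 47 were read by at least 1 probe set annotated to a single gene, out of 19775 such genes on the array. VTN was not analysed here because its 2 probe sets each list several genes. The cells were heat-treated residual MHCC97H cells, an established human hepatocellular carcinoma (HCC) line heated at 47 °C to simulate a sublethal temperature, and no unheated cells were compared here. Control cells received 0 ng/mL POSTN and treated cells 100 ng/mL recombinant POSTN (periostin, a secreted matrix protein that binds integrins), both for 24 h, with 3 samples per condition. RNA of each sample was read on 1 Affymetrix U133 Plus 2.0 array, and values are log2 of the MAS 5.0 signal. In both conditions the samples carry the replicate numbers 1, 2 and 3. Neither the labels nor the methods say what the number stands for, nor whether a separate culture was grown for each sample. The p-values therefore cover only the spread among these samples, which may be technical.

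Hepatocytes make most plasma clotting factors and complement proteins and secrete them into blood. Coagulation starts when tissue factor binds factor VII, runs through a cascade of serine proteases to thrombin, and ends when thrombin turns soluble fibrinogen into fibrin, while antithrombin, protein C, protein S and TFPI hold it back. Complement starts through C1, the lectin pathway proteases or the alternative pathway, meets at C3, and ends with C5 to C9 forming a pore in the target membrane. Cells protect themselves from it with CD46, CD55 and CD59. Fibrinogen and several complement components are acute phase proteins of the liver.

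A gene read by more than 1 probe set is represented by the brightest, by its mean over the 6 arrays. Other probe sets are given for some genes only, and where none is given they may differ. A background level of 5.98 on the log2 scale was set at the 95th percentile of 107 probe sets of olfactory receptor genes, which liver tumor cells are not known to use. The mean of 24 of the 47 genes lay above it, with all 6 arrays above it in 19. The other 23 lay within the background range, and 15 of these did not exceed it on any array. The 3 fibrinogen chains, F3, F2, F5, F7, F8, PROS1, SERPIND1, TFPI, C1R, C1S, C2, C5, CFB, MBL2, CFI, CLU, C4BPA, C4BPB, CD46, CD55 and CD59 were above background. Within the background range were factors F9, F10, F11, F12 and F13B, the contact proteins KLKB1 and KNG1, the anticoagulants PROC, PROZ and SERPINC1, all 4 fibrinolysis genes measured (PLG, SERPINF2, CPB2 and HRG), the proteases MASP1 and MASP2, C3, all pore components except C5, and SERPING1. Values in that range spread widely, with a median standard error of 0.90 for the POSTN difference against 0.26 for the 24 genes above background. Levels of different probe sets are not comparable as amounts of RNA.

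**Figure D1:**
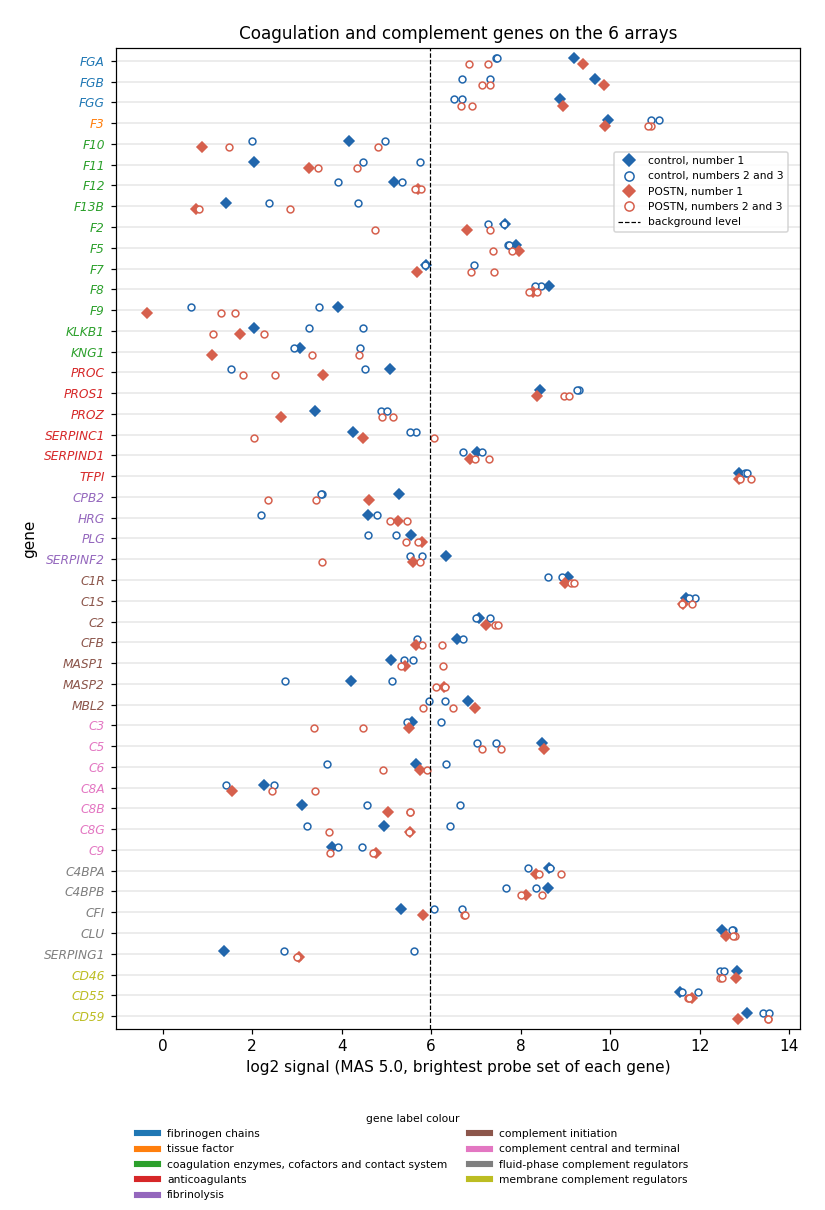
Log2 signal (horizontal axis) of the brightest probe set of 47 coagulation and complement genes (rows, label colour by role) on the 6 arrays. Blue marks control and red POSTN, filled diamonds are the arrays numbered 1 and open circles those numbered 2 and 3, and a dashed line marks the background level (5.98). For FGA, FGB, FGG and C5 both diamonds lie to the right of the 4 circles, and for F3, PROS1 and CD59 to the left.

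The label of the cells was checked with marker genes. Of 10 hepatocyte or hepatoma markers measured, 8 were above background, among them AFP, APOH, KRT8 and KRT18, while APOA1 and SERPINA1 were within the background range by their mean. Of other cell types, 2 of 8 stellate or fibroblast markers (COL1A1 and LUM), 2 of 5 endothelial markers (PECAM1 and KDR) and 1 of 5 leukocyte markers (CD3E) were above background. LUM and PECAM1 had mean log2 signals of 11.17 and 10.10. COL3A1 and ACTA2 exceeded background on 4 arrays and TYROBP on 3, although their means lay within its range. PTPRC, PDGFRB and CDH5 did not exceed it on any array. Array medians ran from 5.80 to 5.95 on the log2 scale, and 47.7% to 49.7% of probe sets lay above background on each.

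The first question was whether POSTN shifted these genes in the heat-treated cells. In limma 0 of the 47 genes passed an adjusted p under 0.05, where 0% of all 19775 genes passed (lowest adjusted p over 0.99). Of the 47 genes, 22 were higher and 25 lower with POSTN, with a median difference of -0.01 on the log2 scale against 0.00015 over all genes. At an unadjusted p under 0.05 there was 1 gene of 47, MASP2, where 2.48% of all genes lay. When a fold change over 2 or under 0.5 was required as well, it was again MASP2 alone, beside 2.07% of all genes. The study's methods name this fold with a t-test in place of limma. By that t-test 1 gene met both limits. The 2 conditions did not overlap in F12, HRG and MASP2, 3 of 47 genes, where 7.13% of all genes showed this. These shares were near those of all genes. With the replicate number as a block, MASP2 and F2 had an unadjusted p under 0.05, 2 of 47 genes beside 4.76% of all genes, and 0 passed the adjustment (lowest adjusted p 0.97).

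**Figure D2:**
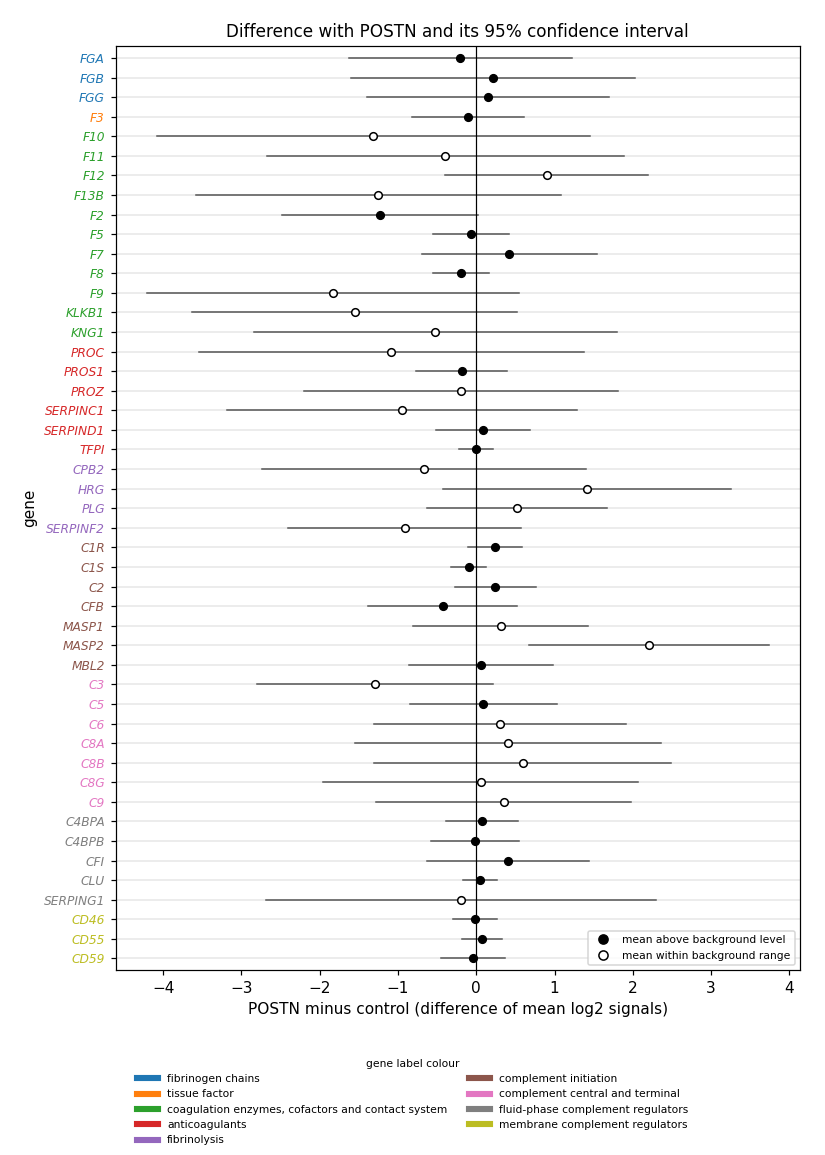
Difference of the mean log2 signals, POSTN minus control (horizontal axis), with its 95% confidence interval from limma, for the brightest probe set of 47 coagulation and complement genes (rows, label colour by role). Filled points have a mean above background and open points a mean within its range, and the interval excludes 0 for MASP2 only, whose open point stands at 2.20.

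MASP2, a serine protease that cleaves C4 and C2 in the lectin pathway, had log2 signals of 4.20, 2.74 and 5.14 in the control samples and 6.28, 6.31 and 6.10 with POSTN. All control values were inside the background range, while those with POSTN were just above it and close together. The log2 difference was 2.20 with a standard error of 0.69 (unadjusted limma p of 0.0095, adjusted p over 0.99). With 3 samples against 3, an exact permutation test cannot give a p under 0.1. The other 2 probe sets of MASP2, also within the background range, differed by -0.59 and 0.08. With the mean of all 3 probe sets in place of the brightest, the difference was 0.57 (unadjusted limma p of 0.45). F12, the contact pathway protease, stood at 5.17, 3.91 and 5.35 in control cells and at 5.71, 5.77 and 5.65 with POSTN, and HRG, a plasma glycoprotein that binds plasminogen and heparin, at 4.60, 2.19 and 4.79 against 5.27, 5.09 and 5.46. All 12 of these values were within the background range, so that a level was not measured in either condition.

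F2 encodes prothrombin, the precursor of thrombin. Its log2 signals were 7.65, 7.27 and 7.62 in control cells and 6.81, 4.74 and 7.31 with POSTN. The POSTN samples spread widely and 1 of them, number 3, lay inside the control range. The difference of -1.23 (standard error 0.56) had a limma p of 0.054, or 0.0090 with the replicate block, and an adjusted p over 0.99. Without POSTN sample 2 the difference was -0.46. That sample was the only one in which F2 fell within the background range.

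Among the other genes above background, the largest differences toward POSTN were those of F7, CFI, C2, C1R and FGB, and none had an unadjusted p under 0.05. F7, the factor that tissue factor binds, was at 5.88, 6.94 and 5.87 in control cells and at 5.67, 7.41 and 6.88 with POSTN, a difference of 0.42 (standard error 0.50), and the conditions overlapped. CFI, the protease that inactivates C3b and C4b, was at 5.33, 6.70 and 6.06 against 5.82, 6.72 and 6.75, a difference of 0.40 (standard error 0.46). In both genes the sample numbered 2 was higher than the one numbered 1 within each condition. C2, the protease of the classical and lectin convertase, read 7.07, 7.01 and 7.31 in control cells and 7.22, 7.42 and 7.49 with POSTN (difference 0.24, standard error 0.23), and C1R, the first protease of the C1 complex, read 9.05, 8.61 and 8.93 against 8.98, 9.13 and 9.18 (difference 0.23, standard error 0.16). The conditions overlapped in both. On the other side were F2, CFB, FGA, F8 and PROS1. CFB, the protease of the alternative pathway convertase, read 6.58, 6.71 and 5.68 in control cells and 5.66, 6.24 and 5.79 with POSTN (difference -0.43, standard error 0.43), and only 3 of its 6 arrays were above background. F8, the cofactor of factor IX, read 8.62, 8.46 and 8.33 against 8.28, 8.37 and 8.19 (difference -0.19, standard error 0.16).

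The 95% interval of the POSTN difference was also read for genes in which it was narrow, on the brightest probe set only. The interval ran from -0.23 to 0.21 for TFPI, the inhibitor of the tissue factor and factor VIIa complex, from -0.32 to 0.12 for C1S, the second C1 protease, and from -0.17 to 0.27 for clusterin (CLU), which keeps the terminal complex from inserting into membranes. The dimmer C1S probe set, above background on all arrays, differed by 0.16, outside this interval (unadjusted limma p of 0.26). For the membrane regulators it ran from -0.29 to 0.27 for CD46, a cofactor for C3b cleavage, from -0.18 to 0.33 for CD55, which breaks up the convertases, and from -0.45 to 0.37 for CD59, which blocks the final C9 step. The dimmest CD59 probe set, above background on all arrays, differed by -0.47, outside the CD59 interval. Its unadjusted limma p was 0.25, or 0.037 with the replicate block (adjusted p 0.97 with the block). The other dimmer CD59 probe sets differed by -0.17 to 0.006, inside that interval. For the fibrinogen chains the interval was wide. It ran from -1.63 to 1.22 for FGA, from -1.60 to 2.03 for FGB and from -1.40 to 1.70 for FGG. The fit behind these intervals leaves the difference between number 1 and the others in the spread. When the number was entered as a block, the standard error of the POSTN difference went from 0.64 to 0.19 for FGA, from 0.82 to 0.19 for FGB and from 0.70 to 0.21 for FGG, and none of the 3 was called.

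The second comparison set the replicate numbers against each other, with condition in the model. In the moderated F test over the 3 numbers, 8 of 47 genes (17.0%) had an adjusted p under 0.05, where 6.64% of all genes did. All 8 were above background, so the count among those is 8 of 24, where 11.3% of the genes above background were called. The arrays numbered 1 were higher for FGA, FGB, FGG, C5 and CD46, 5 genes beside 3.57% of all genes called in this direction, and lower for F3, PROS1 and CD59, 3 genes beside 3.08%. Among the genes above background these shares were 6.05% and 5.26%. Both arrays numbered 1 lay outside the range of the 4 others in 16 of 47 genes, where 31.6% of all genes did so. The fit leaves 2 residual degrees of freedom and leans on the spread shared among probe sets of like brightness. With a prior variance that did not follow brightness, 0 of the 47 genes and 0 of all probe sets passed (lowest adjusted p of these genes 0.45). In RNA from bulk cells, fewer cells that use a gene and less of its RNA per cell cannot be told apart.

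The 3 fibrinogen chains, which assemble in the hepatocyte into 1 secreted hexamer, moved together with the number. FGA, the alpha chain, had log2 signals of 9.19, 7.45 and 7.47 in control samples 1, 2 and 3 and of 9.38, 6.84 and 7.27 in POSTN samples 1, 2 and 3. FGB, the beta chain, had 9.65, 6.69 and 7.32 in control cells and 9.87, 7.30 and 7.13 with POSTN. FGG, the gamma chain, had 8.89, 6.69 and 6.51 in control cells and 8.95, 6.67 and 6.92 with POSTN. In all 3 genes the arrays numbered 1 of both conditions stood high and close to each other, and the 4 others stood low, without overlap. The log2 difference of number 1 from the mean of numbers 2 and 3 was 2.03 for FGA (standard error 0.20, adjusted p = 6.3e-04), 2.65 for FGB (standard error 0.20, adjusted p = 9.9e-05) and 2.22 for FGG (standard error 0.22, adjusted p = 6.6e-04), which are folds of 4.08, 6.26 and 4.66. Between numbers 2 and 3 these genes differed by -0.22, -0.23 and -0.04. Within each condition the number 1 difference was 1.73 and 2.33 for FGA, 2.64 and 2.65 for FGB, and 2.28 and 2.16 for FGG (control first). The second probe set of FGB had 2.92 (adjusted p = 2.3e-04). Of the 2 dimmer FGA probe sets, both within the background range, 1 had 2.24 and the other 0.67, and neither was called (adjusted p 0.092 and 0.59).

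**Figure D3:**
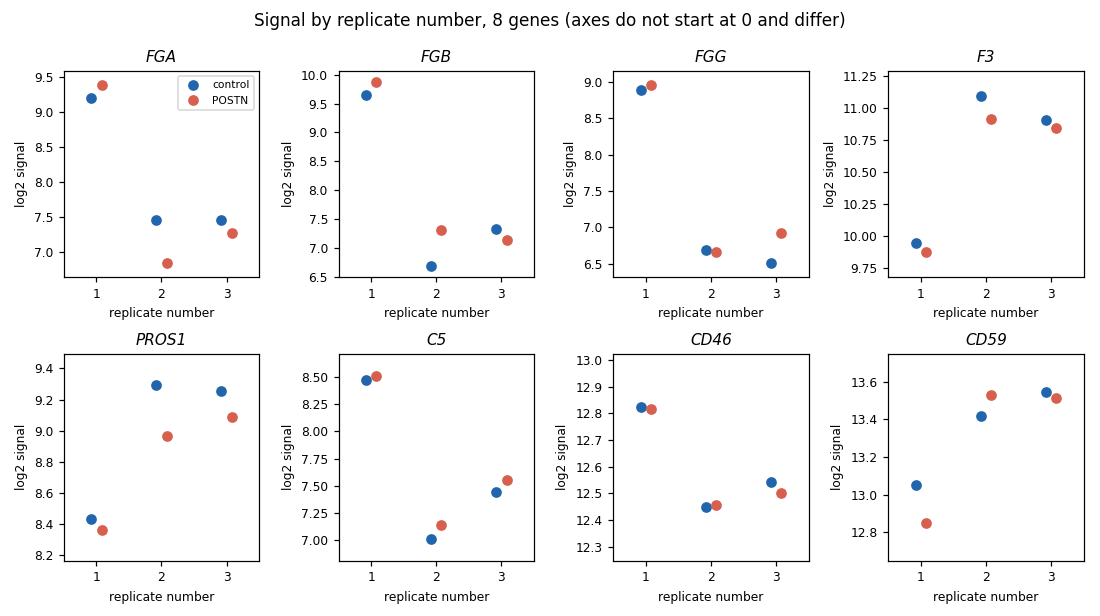
Log2 signal (vertical axes, which differ between panels and do not start at 0) by replicate number (horizontal axes) for the 8 genes called in the F test of the number, 1 point per array, control in blue and POSTN in red. FGA, FGB, FGG, C5 and CD46 are highest in both samples numbered 1 and F3, PROS1 and CD59 lowest.

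The fibrinogen genes are neighbours on chromosome 4, in the order FGB, FGA, FGG, with no other protein-coding gene between them in RefSeq. Their promoters are shown because the chains moved together, as the 250 bases before each gene start, 5′ to 3′ on the gene's strand (RefSeq, GRCh38.p14), at chr4:154590743-154590992 on the minus strand for FGA, chr4:154562730-154562979 on the plus strand for FGB and chr4:154612657-154612906 on the minus strand for FGG. Capitals mark matches to a core motif of the liver factor HNF1 (GTTAAT, or ATTAAC on the other strand) and to an interleukin 6 response element (CTGGGAA), which do not overlap here.
FGA: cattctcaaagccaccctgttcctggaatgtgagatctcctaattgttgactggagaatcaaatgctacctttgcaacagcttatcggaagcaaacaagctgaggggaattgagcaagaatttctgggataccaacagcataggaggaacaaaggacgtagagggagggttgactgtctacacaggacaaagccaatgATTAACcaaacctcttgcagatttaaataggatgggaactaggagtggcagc
FGB: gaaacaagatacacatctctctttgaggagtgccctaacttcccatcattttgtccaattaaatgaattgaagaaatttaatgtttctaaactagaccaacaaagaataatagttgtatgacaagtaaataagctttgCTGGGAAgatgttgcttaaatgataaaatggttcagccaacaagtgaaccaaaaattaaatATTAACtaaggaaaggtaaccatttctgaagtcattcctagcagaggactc
FGG: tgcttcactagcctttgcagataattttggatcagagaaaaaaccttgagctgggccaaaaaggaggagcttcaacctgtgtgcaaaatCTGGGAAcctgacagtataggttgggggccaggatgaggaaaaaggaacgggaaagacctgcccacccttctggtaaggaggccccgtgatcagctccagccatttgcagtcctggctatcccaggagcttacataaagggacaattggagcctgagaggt
FGA held 1 HNF1 motif, FGB held 1 HNF1 motif and 1 interleukin 6 element, and FGG held 1 interleukin 6 element. The letters TATAAA were found in none of the 3. Over 300 bases, which include 50 after the gene start, and on both strands, the HNF1 motif was in 6.89% of 27305 promoters and in 9 of the 41 of these genes with a promoter in the table (22.0%), among them F2, PROC, PLG and CFI. The interleukin 6 element was in 11% of all promoters and in 6 of 41 (14.6%), and TATAAA in 12% and in 4 of 41 (9.76%). These are letter matches and say nothing of binding in these cells.

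Tissue factor (F3), the membrane receptor that starts coagulation, went the other way. Its log2 signals were 9.95, 11.09 and 10.91 in control samples 1, 2 and 3 and 9.88, 10.92 and 10.85 with POSTN. The arrays numbered 1 lay below the 4 others in both conditions. The difference was -1.03 (standard error 0.08, adjusted p = 1.0e-04), a 2.04-fold lower signal, and numbers 2 and 3 differed by 0.13. None of the 11 clotting enzymes, cofactors and contact proteins was called by number. Of the 4 above background, F2, F5 and F8 had number 1 differences of 0.50, 0.28 and 0.11, and F7 of -0.998 (adjusted p = 0.24). For F7 both arrays numbered 1 lay in the background range (5.88 and 5.67), so the size of that difference was not measured. The dimmer F7 probe set, which did not exceed background on any array, had 1.29.

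Among the 6 anticoagulants, 1 was called. PROS1, protein S, the cofactor of activated protein C and of TFPI, had 8.43, 9.29 and 9.25 in control cells and 8.37, 8.97 and 9.08 with POSTN. Both arrays numbered 1 were the lowest. The difference was -0.75 (standard error 0.12, adjusted p = 0.015), a 1.68-fold lower signal. TFPI, bright at 12.87 to 13.14 on all arrays, was not called on its brightest probe set (difference -0.15, adjusted p = 0.34). All 5 TFPI probe sets were lower in number 1, and 2 of them passed, with differences of -0.38 (adjusted p = 0.019) and -0.87 (adjusted p = 6.2e-04). SERPIND1, heparin cofactor II, which inhibits thrombin, differed by -0.09 (adjusted p = 0.79). Of the fibrinolysis genes, none was called, and all 4 were in the background range.

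In complement, none of the 7 initiation genes was called by number, with differences of -0.17 to 0.76 in the 5 above background, the highest in MBL2, the mannose-binding lectin (adjusted p = 0.55). C5, the component whose cleavage opens the terminal pathway, was the 1 central or terminal component above background. Its log2 signals were 8.48, 7.01 and 7.44 in control cells and 8.51, 7.14 and 7.55 with POSTN. The arrays numbered 1 were the highest in each condition, without overlap with the 4 others. The difference was 1.21 (standard error 0.19, adjusted p = 0.0098), or 2.31-fold. None of the 5 fluid-phase regulators was called, and CLU, lower by 0.21 on arrays numbered 1 on its brightest probe set, had an adjusted p of 0.13. CFI had the largest difference of those above background, -0.98 (adjusted p = 0.39 in the F test). Both of its arrays numbered 1 lay below the 4 others and in the background range (5.33 and 5.82), so the size of that difference was not measured.

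The membrane regulators split. CD46 had log2 signals of 12.82, 12.45 and 12.54 in control cells and 12.82, 12.46 and 12.50 with POSTN, higher in number 1 by 0.33 (standard error 0.06, adjusted p = 0.015), or 1.26-fold. Its other 2 probe sets, which are dimmer, had 0.55 and 0.61 (adjusted p 0.011 and 0.0046). CD59 had 13.05, 13.42 and 13.55 in control cells and 12.85, 13.53 and 13.51 with POSTN. Both arrays numbered 1 lay below the 4 others, by 0.55 on the log2 scale in the mean (standard error 0.07, adjusted p = 0.0021), or 1.47-fold. All 5 CD59 probe sets were called lower in number 1, with differences of -1.07 to -0.46. CD55 was not called on any of its 3 probe sets, with a difference of -0.08 on the brightest (adjusted p = 0.58).

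**Figure D4:**
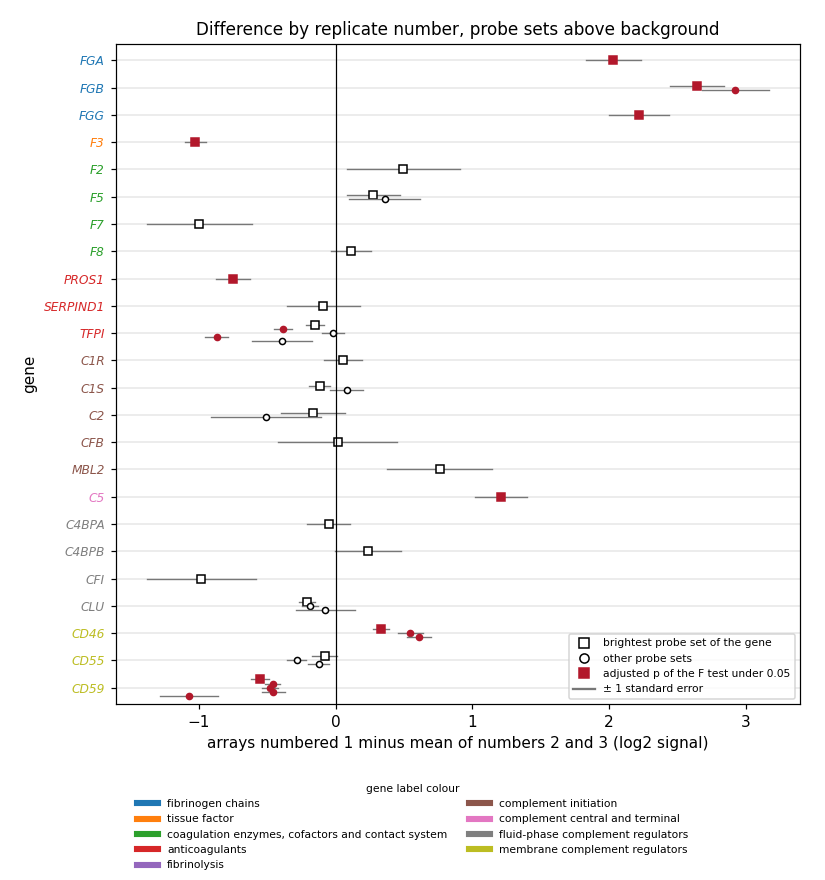
Difference in log2 signal between the arrays numbered 1 and the mean of numbers 2 and 3 (horizontal axis), with 1 standard error on either side, for each of the 42 probe sets above background (24 genes in rows, label colour by role). Squares are the brightest probe set of a gene and circles the others, and red marks an adjusted p under 0.05 in the F test of the number, from 2.92 for FGB down to -1.07 for CD59.

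A further 48 coagulation and complement genes outside the list were read in the same fits, and 41 were measured, 15 of them above background. With POSTN, 0 had an adjusted or an unadjusted p under 0.05. By number 3 of 41 were called (7.32%), near the 6.64% of all genes. SERPINA1, the elastase inhibitor, had 7.79, 4.14 and 4.40 in control cells and 7.82, 5.16 and 5.85 with POSTN, higher in number 1 by 2.92 (adjusted p = 0.019), but the 4 arrays of the other two numbers lay in the background range, so the size of that difference was not measured. TFPI2, a relative of TFPI, had 8.88, 10.02 and 10.02 in control cells and 9.08, 9.74 and 9.84 with POSTN, lower in number 1 by 0.92 (adjusted p = 0.0032). F2RL2, a thrombin receptor of the protease-activated family, had 11.01, 11.59 and 11.51 in control cells and 11.10, 11.41 and 11.53 with POSTN, lower in number 1 by 0.46 (adjusted p = 0.016).

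Values that moved with the replicate number are given beside these results. Of the 10 hepatocyte markers measured, 4 were called by number, all higher in number 1. They were APOH (higher by 1.65), TF (2.83), ALB and SERPINA1, and for ALB and SERPINA1 the mean of numbers 2 and 3 was within the background range (5.94 and 4.89), against 7.79 and 7.81 in number 1. The markers AFP, KRT8, KRT18, APOA1, APOB and TTR were not called. APOB, TTR, KRT18 and KRT8 were lower in number 1, with differences of -0.65, -0.44, -0.16 and -0.03. AFP and APOA1 were higher, with 0.12 and 1.80, and APOA1 was in the background range on all arrays. The summed linear signal of the list, set mainly by the keratins, was 53595 and 57416 on the arrays numbered 1 and 52132 to 57247 on the others. Of the other cell types, only PECAM1 was called, higher in number 1 by 0.51 (adjusted p = 0.027). The other endothelial marker above background, KDR, differed by -0.01 and was not called (adjusted p over 0.99 in the F test). TEK and VWF were lower in number 1 and CDH5 higher, with means within the background range and CDH5 in that range on all arrays. The summed endothelial signal, set mainly by PECAM1, was 1416 and 1674 against 1014 to 1290. For stellate markers, of which 0 of 8 were called, the sums were 2587 and 3014 against 2732 to 3060, and for leukocyte markers, with 0 of 5 called, 251.9 and 252 against 165 to 263. The 3′ minus 5′ log2 signal of GAPDH, a measure of RNA quality, was -0.06 and -0.07 on the arrays numbered 1 and -0.05 to -0.0018 on the others, and that of ACTB was 0.90 and 0.93 against 0.81 to 1.09. The part of any of these in the differences by number was not tested.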

How the data were processed

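Total RNA from 6 samples of heat-treated residual MHCC97H cells was measured by the authors on U133 Plus 2.0 arrays. The deposited values are log2 MAS 5.0 signals made by the authors with the affy package (versions not given in the sources used here). Without the highest and lowest 2%, the mean linear signal is 500 on every array, and MAS 5.0 subtracts mismatch signal, so dim probe sets vary widely. Precision is limited by the number of arrays.

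Groups and replicate numbers came from the labels. Of 54675 probe sets, 62 controls were left out, and 41091 list 1 gene. Fits used limma 3.58.1 in R 4.3.3 (lmFit, eBayes with trend) for condition and for the 3 numbers with condition, with Benjamini-Hochberg adjustment over 54613 probe sets and no filter. The scripts were tested on simulated data. Same-numbered arrays deviated together above background (r = 0.529, 0.235 and 0.239, against 0.088, 0.034 and 0.025 over all probe sets), so the numbers were taken as pairs, from the data and not from the labels. Numbers 2 and 3 were hardly distinguished as pairs, since control 2 with POSTN 3 gave 0.201 and control 3 with POSTN 2 gave 0.150. Gene symbols are those of the array annotation. The genes, lists and tests were chosen with earlier results of these data known. Values by array were given for those of the 48 genes with an unadjusted p under 0.05 by condition, an adjusted p under 0.05 by number, or among the 5 largest differences by condition in either direction above background, and for MASP2. F12 and HRG were named after their values were seen.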

Additional observations from a re-analysis of the deposited data

How the results depend on the processing

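With POSTN, the count at an adjusted p under 0.05 was 0, of these genes and of probe sets, in every setting run, among them the methods' t-test, where 1976 probe sets had an unadjusted p under 0.05. Such probe sets numbered 1649 in limma as reported, 318 among probe sets above background and 2601 with the replicate block. Of the coagulation and complement genes 1 had such a p, 2 after median centring (F2 added), 0 among genes above background, 2 with the replicate block and 2 without both arrays numbered 1 (C1R added). With the mean of all probe sets of a gene the count stayed at 1, but the gene was HRG and not MASP2. The count was 1 to 3 when each array was left out in turn (3 without POSTN sample 1, F2 and C3 added, and 2 without control sample 2, F9 added, or without POSTN sample 3, F2 added). At the study's p and fold thresholds, applied to limma's p, the 1 gene became 2 after median centring, 0 on log2(value + 50), 0 among genes above background and 2 with the replicate block, and 1 to 3 with an array left out. The block changed no other call among the brightest probe sets of these genes.

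By replicate number, 2230 probe sets were called, 1345 on log2(value + 50), 0 with a prior variance without trend, and 1121 to 4454 with an array left out, the lowest without POSTN sample 1 and the next, 1276, without control sample 1, and 4454 without POSTN sample 2 or 4019 without control sample 2. The 8 genes were the same under quantile normalization, median centring, log2(value + 50) and the filter on background. They became 0 with a prior variance without trend, and 4 of 38 (FGB, F3, C5 and CD59) with probe sets not ending in _x_at or _s_at. Under that limit FGG, PROS1 and CD46 had no probe set left, and FGA was not called (adjusted p = 0.59 in the F test). With an array left out the called genes numbered 5 to 9, where 5 (FGA, FGB, FGG, F3 and CD59) held without control sample 1 or without POSTN sample 1. Without both arrays numbered 1, numbers 2 and 3 differed in 0 of the 8 genes. With the mean of all probe sets of a gene, FGA was lost (adjusted p = 0.13). No called result reversed its direction.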
